A study of Mus musculus with 27 samples.

Results

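Skeletal muscle transcripts were abundant on 9 of the 27 lung arrays of this series. The 9 arrays were chosen by their measured values: for each array the log2 intensities of 10 genes of fast skeletal muscle (Ckm, Acta1, Mylpf, Tnnt3, Tnni2, Tnnc2, Atp2a1, Actn3, Pvalb and Myh4) were averaged into a muscle score, and an array was taken when its score lay more than 1 log2 unit above that of the median array, which was 6.55. The other 18 arrays are called clean arrays, a name that refers to these 10 genes alone. The series compared lungs of 3 strains, C57L/J and C57BL/6J as well as CBA/J. Female mice of 10 to 12 weeks of age received 0 (sham), 12.5 or 15 Gy of X-rays to the whole thorax and were killed 24 h later. Each of the 9 combinations of strain and dose had 3 mice, with 1 array of the unpooled RNA of a right upper lobe per mouse. The sham mice were the controls within each strain. The question asked of the 9 arrays here was which transcripts other than those of muscle came with them, which arrays carried which tissue, and how this touched the comparisons between doses.

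The upper chest and lower neck of a mouse bring many tissues close together. The trachea and lung roots lie beside the oesophagus, whose wall in the mouse is striated muscle lined by a keratinizing squamous epithelium, and near thymus, lymph nodes, brown fat, and further up the thyroid with its parathyroid glands. Fast skeletal muscle fibres are marked by their own isoforms of myosin, troponin and the calcium pump of the sarcoplasmic reticulum, stratified squamous epithelium by keratins and cornified envelope proteins, thyroid follicles by thyroglobulin, and parathyroid chief cells by parathyroid hormone. Lung parenchyma itself has no skeletal muscle, although the pulmonary veins of the mouse carry a sleeve of cardiac muscle.

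In ascending order of the muscle score the 9 arrays were C57BL/6J 12.5 Gy replicate 1, CBA/J 0 Gy replicate 1, CBA/J 0 Gy replicate 2, C57BL/6J 15 Gy replicate 3, C57BL/6J 12.5 Gy replicate 2, CBA/J 12.5 Gy replicate 2, C57BL/6J 15 Gy replicate 2, C57L/J 15 Gy replicate 3 and CBA/J 12.5 Gy replicate 3. Where 9 values are listed, they follow this order. The scores were 9.15, 9.73, 10.79, 11.88, 11.98, 12.22, 12.40, 13.93 and 14.75, which is 2.59 to 8.19 above the median array. The 18 clean arrays lay between 0.90 below it and 0.44 above it, and the nearest of them were CBA/J 0 Gy replicate 3 with 6.99 and CBA/J 15 Gy replicate 1 with 6.94. No array lay between 6.99 and 9.15, so the limit fell in a gap. The arrays were spread over doses, with 2 of 9 at 0 Gy, 4 of 9 at 12.5 Gy and 3 of 9 at 15 Gy. Over strains they were less even, with 1 of 9 C57L/J arrays and 4 of 9 in each of C57BL/6J and CBA/J.

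**Figure D1:**
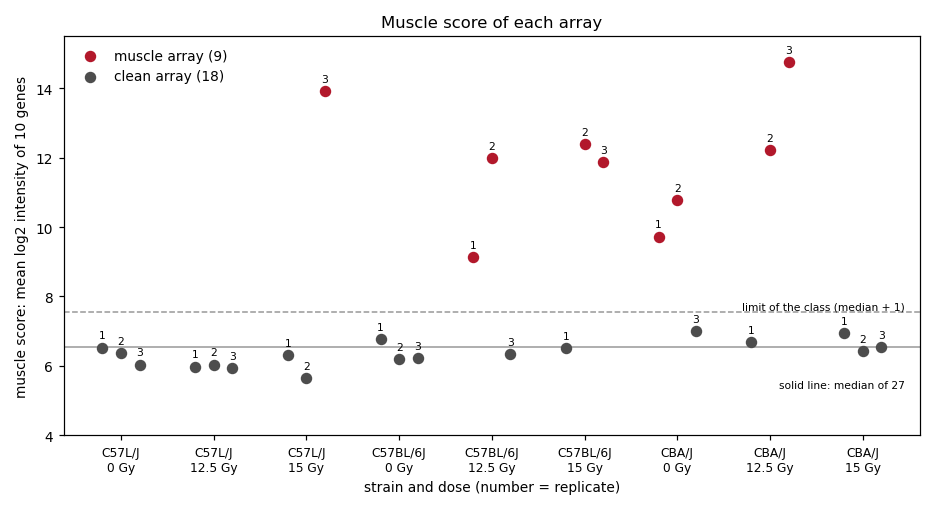
Muscle score of each of the 27 arrays, the mean log2 intensity of 10 fast skeletal muscle genes, by group of strain and dose. Points are arrays, filled by class, and the lines mark the median array (6.55) and the limit 1 log2 unit above it. The 9 muscle arrays sit between 9.15 and 14.75 and the 18 clean arrays reach 6.99.

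Promoters of muscle genes often hold the E-box CAGCTG, a core that MyoD and myogenin, transcription factors of the muscle lineage, are known to bind. It reads the same on both strands and is 1 form of the wider E-box CANNTG. RefSeq sequences of the 250 bases before the start site (build GRCm38.p6) were at hand for 7 of the 10 genes, as 8 sequences since Pvalb has 2 start sites, and 5 of the 8 held CAGCTG against 13.0% of 32851 mouse promoter sequences of this length. CANNTG stood in 7 of the 8 and in 66.2% of all, and was missing from 1 of the Pvalb sequences. The sequences of Tnnc2 and Pvalb did not hold CAGCTG. The 4 promoters below belong to rule genes whose sequence held it, with the core in capitals, each written 5′ to 3′ on the strand of its gene. They are Ckm, muscle creatine kinase, at chr7:19410844-19411093 on the plus strand. Acta1, skeletal α-actin, lies at chr8:123894776-123895025 on the minus strand. Mylpf, the fast regulatory myosin light chain, lies at chr7:127211358-127211607 on the plus strand. Myh4, the myosin heavy chain of fast IIb fibres, lies at chr11:67237562-67237811 on the plus strand.
Ckm: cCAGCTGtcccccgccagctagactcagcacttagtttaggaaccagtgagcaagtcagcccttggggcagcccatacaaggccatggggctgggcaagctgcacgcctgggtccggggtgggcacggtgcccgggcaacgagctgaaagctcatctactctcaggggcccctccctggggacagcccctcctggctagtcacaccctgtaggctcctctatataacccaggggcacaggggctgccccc
Acta1: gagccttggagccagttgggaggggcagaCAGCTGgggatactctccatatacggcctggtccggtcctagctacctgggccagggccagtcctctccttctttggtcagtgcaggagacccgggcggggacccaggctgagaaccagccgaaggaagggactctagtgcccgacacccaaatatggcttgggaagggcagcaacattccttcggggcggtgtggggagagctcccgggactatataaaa
Mylpf: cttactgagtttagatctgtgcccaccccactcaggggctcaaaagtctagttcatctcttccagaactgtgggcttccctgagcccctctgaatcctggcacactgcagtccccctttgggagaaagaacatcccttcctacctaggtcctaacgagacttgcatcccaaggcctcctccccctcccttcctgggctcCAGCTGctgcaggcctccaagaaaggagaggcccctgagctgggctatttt
Myh4: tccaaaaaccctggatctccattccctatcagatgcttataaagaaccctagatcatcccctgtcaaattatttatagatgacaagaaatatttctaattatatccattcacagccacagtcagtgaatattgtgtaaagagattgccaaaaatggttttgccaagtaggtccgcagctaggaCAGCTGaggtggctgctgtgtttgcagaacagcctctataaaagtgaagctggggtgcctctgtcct
The core began 249 bases before the start site in Ckm, 221 in Acta1, 51 in Mylpf and 67 in Myh4. A match of these letters is a description of the sequence and not evidence of binding. Among other fast muscle genes 6 of 14 with a sequence held the core, and among squamous genes 4 of 21.

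The 10 genes that chose the arrays are described first, without a test. Acta1 stood at 12.03, 12.59, 13.53, 14.35, 14.34, 14.43, 13.71, 14.80 and 14.99 on the 9 arrays and at 5.38 to 9.12 (median 6.73) on the clean arrays. Tnnc2, the calcium-binding subunit of fast troponin, differed by 9.43 ± 0.61 log2 units (SE from the fit over 9 muscle and 18 clean arrays, adjusted for the group of strain and dose, as for each difference below), with 10.83 to 14.71 on muscle arrays and 1.93 to 6.02 on clean arrays. For Acta1 and Tnnc2 the classes did not overlap. Ckm differed by 3.71 ± 0.54, with a range of 6.95 to 10.79 on clean arrays against 10.99 to 14.88 on muscle arrays. Its highest clean value was that of CBA/J 0 Gy replicate 3, and without this array the clean arrays reached 10.14. Pvalb, the calcium buffer of the fastest fibres, was the gene with an overlap, since the first array had 6.15 and the clean arrays reached 6.47.

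Genes of different fibre types varied over the 9 arrays in different ways. Myh4 and Pvalb belong to the 10 genes that set the order of the arrays, while Myh1, Myh2 and Myh8 do not. Myh4 was at 5.84, 5.73, 7.41, 8.72, 9.52, 8.15, 12.18, 13.80 and 14.80, against 3.47 to 5.51 on clean arrays, so that the last 3 arrays stood well above the first 6. Pvalb showed the same step, with 6.15 to 8.78 on the first 6 and 11.81, 12.96 and 14.67 on the last 3. Myh2, the IIa heavy chain, stood at 3.35, 7.98, 5.40, 6.95, 5.80, 7.87, 10.35, 11.72 and 14.26 against 2.16 to 5.28. By contrast Myh1, the IIx heavy chain, was high throughout, with 10.66, 11.83, 12.65, 14.07, 13.66, 13.79, 13.19, 14.31 and 14.84 against 4.67 to 5.98 on clean arrays. The 3 adult fast heavy chains thus ordered the arrays in different ways.

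Myh8, a heavy chain of developing muscle that is also kept in some specialised adult muscles, had 9.82, 10.41, 11.95, 13.05, 12.63, 13.36, 10.74, 13.63 and 8.96, against 2.14 to 5.55 on clean arrays. It was lowest on CBA/J 12.5 Gy replicate 3, the array on which Myh1, Myh2 and Myh4 were highest. Myl3, the slow and ventricular light chain, had a like order, with 10.18 to 13.72 on the first 8 arrays and 9.82 on the last, against 5.12 to 10.07 on clean arrays. Myh7, the heavy chain of slow fibres and of the ventricle, differed by 0.090 ± 0.13, with 8.32 to 10.59 on muscle arrays and 8.32 to 10.42 on clean arrays. Tnni1, the slow troponin I, stood at 5.33, 5.03, 4.30, 3.01, 4.54, 9.07, 6.57, 7.81 and 5.99, highest on CBA/J 12.5 Gy replicate 2, where clean arrays lay between 1.90 and 4.17. Myh3, the embryonic heavy chain, lay between 5.84 and 6.98 on muscle arrays and between 3.22 and 6.42 on clean arrays.

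**Figure D2:**
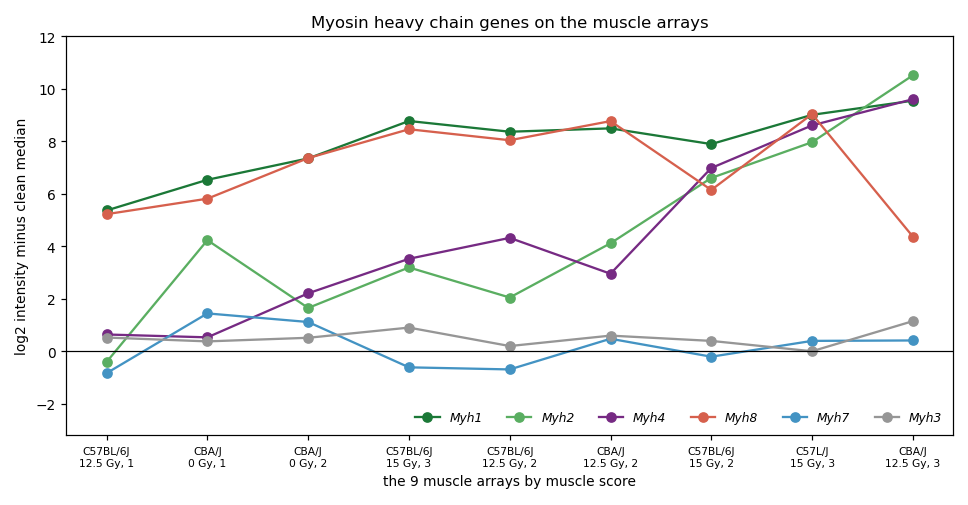
Log2 intensity of 6 myosin heavy chain genes on each of the 9 muscle arrays, in ascending order of the muscle score, minus each gene's median over the 18 clean arrays. Points are single arrays and the lines only join the points of a gene. Myh1 is well above 0 on each of the 9, Myh4 steps up on the last 3, and Myh8 is lowest on CBA/J 12.5 Gy replicate 3.

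Beyond the rule genes, 22 of 22 other fast muscle genes had a positive difference, with a median of 2.41 log2 units, and 24 of 25 sarcomere genes did, with a median of 1.63, while the median over all 18194 genes was -0.033. The slow muscle genes had a median of 0.45 over 13. Myot, the Z-disc protein myotilin, went from 0.55 to 5.12 on clean arrays to 7.87 to 13.84 on muscle arrays. Myf6, a regulator of the muscle lineage expressed in mature fibres, stood at 4.88 to 10.39 against 1.65 to 4.87. Myod1, the regulator of myoblasts, stood at 5.47 to 8.29 against 5.35 to 6.17. Mb, myoglobin, overlapped between the classes, with 11.45 to 14.72 against 8.74 to 12.39. All these genes belong to the tissue that chose the arrays, so their differences are given as a description and no p-value is read from them.

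Over all 18194 genes, with the group of strain and dose in the limma model, 307 genes were higher on muscle arrays (1.69% of those tested) and 48 were lower (0.264%) at an adjusted p under 0.05. Of the 307, 41 were on the skeletal muscle lists and therefore follow from the choice, 26 were on the squamous or cornified lists, 10 were on other lists and 230 were on none. There were 47 genes more than 16-fold higher, while the largest fall among the 48 was 1.84-fold. Over all genes, called or not, the lowest log2 difference was -2.62. In 42 genes (0.231%) all 9 muscle arrays lay above all 18 clean arrays, 24 of them on the muscle lists and 5 on the squamous list, and in 0 genes all 9 lay below. The comparison rests on 5 groups of strain and dose that hold both kinds of array, with 6 clean arrays among them. With those 5 groups alone 33 genes were higher and 0 lower, without the 3 arrays with thyroglobulin 126 and 9, and with quantile normalization 315 and 91. The counts also depended on single arrays: the number of higher genes was 76 without C57L/J 15 Gy replicate 3, 132 without CBA/J 12.5 Gy replicate 1 and 1140 without CBA/J 0 Gy replicate 3, and the number of lower genes was 2, 3 and 708. CBA/J 0 Gy replicate 3 is the sole clean array of its group and carried transcripts of fat and lymph node, given below. CBA/J 12.5 Gy replicate 1, C57BL/6J 12.5 Gy replicate 3 and C57BL/6J 15 Gy replicate 1 are also sole clean arrays of their groups. Leaving out each of these in turn gave 132, 240 and 281 higher genes.

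Squamous epithelium was the tissue that came with muscle on nearly every one of the 9 arrays. Of 40 measured genes on the squamous list 25 were higher and 0 lower, beside the 1.69% and 0.264% of all genes, and the median difference was 2.40 log2 units. Krt4, a keratin of the upper layers of oesophageal epithelium, stood at 10.74, 12.69, 14.00, 13.71, 14.06, 14.08, 12.24, 14.47 and 9.32, and between 4.58 and 6.89 on clean arrays. It was higher by 7.23 ± 0.65 (adjusted p = 3.15e-06), with 9 of 9 arrays above all clean arrays. Krt13, the partner of Krt4, stood at 9.88, 11.30, 13.60, 12.60, 13.36, 13.61, 11.74, 13.95 and 5.48, and between 1.33 and 5.62 on clean arrays. It was higher by 7.34 ± 1.06 (adjusted p = 0.000874), and 8 of the 9 arrays lay above the clean range while CBA/J 12.5 Gy replicate 3 lay within it. Krt4 and Krt13 kept their calls under each alternative tried and with each array left out in turn, while the number of squamous genes called was 12 without C57L/J 15 Gy replicate 3 and 8 with the 5 mixed groups alone.

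**Figure D3:**
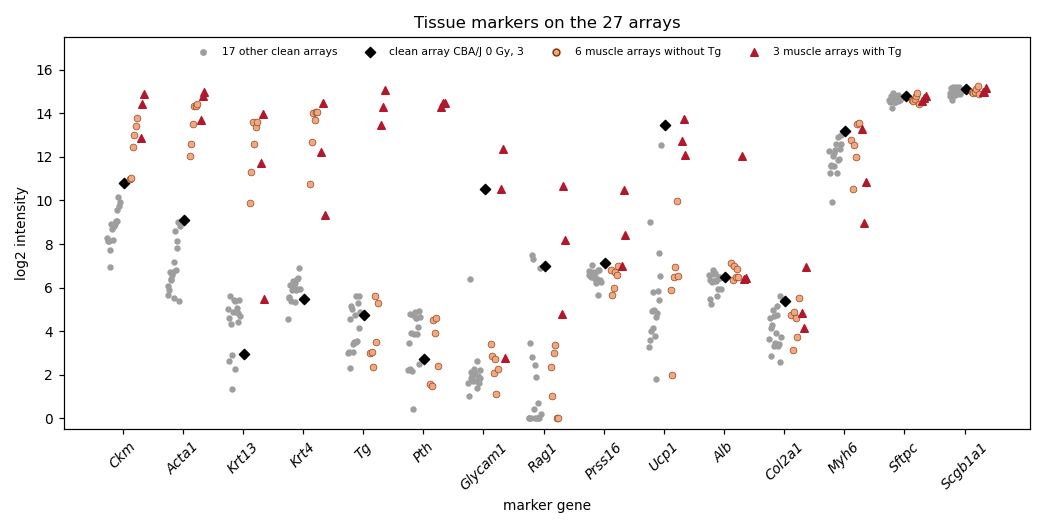
Log2 intensity of 15 marker genes on each of the 27 arrays. Clean arrays are grey dots, except CBA/J 0 Gy replicate 3, a black diamond. The 6 muscle arrays without thyroglobulin are pale filled circles and the 3 with it are triangles. Krt13 is at 9.88 to 13.95 on 8 muscle arrays and at 5.48 on CBA/J 12.5 Gy replicate 3, and Tg and Pth are above 13 on 3 arrays.

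Genes known from the basal layer of squamous epithelium were higher as well, and the tissue they came from on each array was not tested. Trp63, the p63 transcription factor of basal cells, ranged from 7.29 to 10.24 on muscle arrays and from 5.67 to 7.16 on clean arrays, a difference of 2.39 ± 0.30 (adjusted p = 0.000199), which missed the threshold when other probe sets of the gene stood for it. Krt5, a basal keratin, ranged from 8.62 to 12.76 against 5.44 to 8.03 and was 3.97 ± 0.53 higher (adjusted p = 0.000451). Krt14, its partner, was 4.71 ± 0.70 higher (adjusted p = 0.00107), and Krt15, another basal keratin, was 6.07 ± 1.02 higher (adjusted p = 0.00306), a call that was lost without the 3 arrays with thyroglobulin. Pkp1, a desmosomal plaque protein, was 5.91 ± 0.60 higher (adjusted p = 1.67e-05). In Trp63, Krt5, Krt14 and Pkp1 the classes did not overlap.

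Genes of the cornifying layers divided the arrays instead. Krtdap, a secreted peptide of differentiating keratinocytes, was at 9.78 to 13.70 on the first 8 arrays and at 5.74 on CBA/J 12.5 Gy replicate 3, within the clean range of 4.37 to 6.67, and was 5.78 ± 0.86 higher over the 9 arrays (adjusted p = 0.00107). Mt4, the metallothionein of stratified epithelium, followed it, with 8.73 to 13.19 on the first 8 arrays, against 3.02 to 5.77 on clean arrays, and with the last array inside the clean range (6.24 ± 0.89, adjusted p = 0.000817). Lor, loricrin of the cornified envelope, was at 9.82 to 12.98 on the first 8 and at 6.19 on the last (3.90 ± 0.74, adjusted p = 0.00807). It was the sole higher gene of the 9 measured on the list of cornified skin, whose median difference was 0.61. Krt10, the keratin of the epidermis, differed by 0.33 ± 0.12 (adjusted p = 0.169). Krt1, its partner, differed by -0.13 ± 0.17 (adjusted p = 0.706).

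The late cornified envelope family was looked at after Lce1c, a member, appeared among the genes with the largest rise. Lce1c stood at 6.62, 8.48, 10.80, 10.35, 9.48, 10.88, 8.14, 10.06 and 0.00, and between 0.00 and 2.20 on clean arrays, a difference of 7.50 ± 1.13 (adjusted p = 0.00118). Of 15 measured members 11 were higher and 0 lower, with a median difference of 3.26, beside the 1.69% of all genes. The members are close in sequence, and probe sets may read more than 1 of them. The number of squamous genes above the highest clean array was 16, 19, 29, 28, 29, 28, 25, 32 and 11 of 40 over the 9 arrays. Thus the array with the most muscle had the fewest squamous genes above the clean range, and the array next to it had the most. For such counts on single arrays, here and below, the share of all genes was not counted. Of 12 housekeeping genes 0, 0, 1, 1, 2, 3, 3, 4 and 4 lay above all clean arrays.

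**Figure D4:**
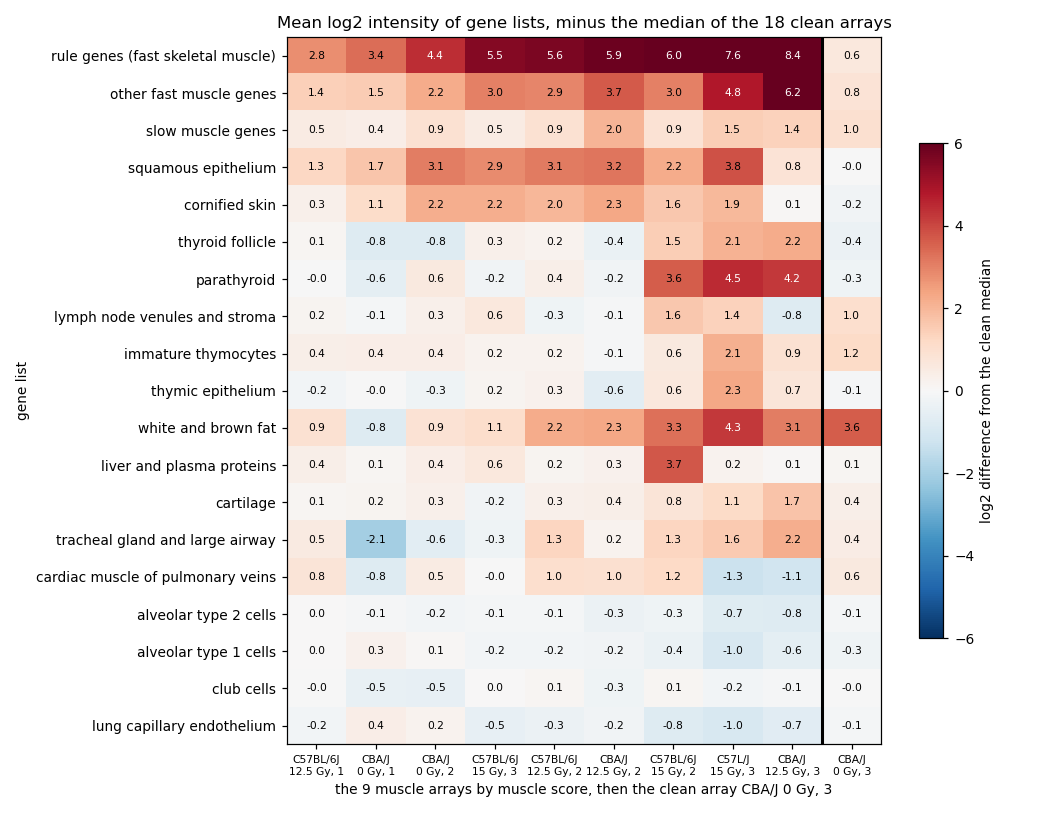
Mean log2 intensity of each gene list on the 9 muscle arrays, in ascending order of the muscle score, and on the clean array CBA/J 0 Gy replicate 3 in the last column, each minus the median of the 18 clean arrays. Colour and the printed value give this difference. The squamous list is raised on most arrays, the thyroid and parathyroid lists on 3, the thymus lists mainly on C57L/J 15 Gy replicate 3 and the liver list on C57BL/6J 15 Gy replicate 2.

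Thyroid and parathyroid transcripts were present on the 3 arrays with the highest muscle scores. Tg, thyroglobulin, stood at 13.46 on C57BL/6J 15 Gy replicate 2, at 14.30 on C57L/J 15 Gy replicate 3 and at 15.07 on CBA/J 12.5 Gy replicate 3, against 2.33 to 5.62 on the other 6 muscle arrays and 2.31 to 5.63 on the 18 clean arrays. Pth, parathyroid hormone, stood at 14.29, 14.49 and 14.48 on the same arrays, against 1.46 to 4.62 on the other 6 and 0.43 to 4.90 on clean arrays. On these 3 arrays both hormone genes were thus far outside the range of the other 24. Since 6 muscle arrays lacked them, the difference between the classes did not pass the test, with 3.50 ± 1.58 for Tg (adjusted p = 0.25) and 4.63 ± 1.91 for Pth (adjusted p = 0.209).

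Other genes of the thyroid showed the same 3 arrays. Slc26a7, an anion transporter of follicular cells, stood at 8.24, 9.93 and 11.53 there and at no more than 5.03 on clean arrays. Iyd, the deiodinase that recovers iodide from tyrosine, stood at 8.96, 10.27 and 11.55, of which the first lay below the highest clean value of 9.05. Pax8, a transcription factor of the follicular lineage, stood at 6.43, 7.99 and 9.61 against a highest clean value of 6.35. The mean of the 14 measured thyroid genes was 7.97, 8.56 and 8.68 on the 3 arrays and 5.55 to 6.92 on clean arrays, and 0 of the 14 passed the test between the classes. Slc26a7, Iyd and Pax8 were ordered in the same way as Tg, lowest on C57BL/6J 15 Gy replicate 2.

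Among parathyroid and neuroendocrine genes, Chga, chromogranin A of secretory granules, stood at 12.25, 13.25 and 13.00 on the 3 arrays against 2.91 to 5.84 on clean arrays. Casr, the calcium-sensing receptor, stood at 7.07, 7.63 and 7.90 against a highest clean value of 7.02. Kl, the co-receptor klotho of parathyroid and kidney, stood at 7.41, 8.72 and 8.15 against 5.71. The mean of the 6 measured parathyroid genes was 9.60, 10.42 and 10.18 on these arrays and at most 6.44 on clean arrays, and 0 of the 6 passed the test. Sst, somatostatin, from the list of C cells of the thyroid, was the list's 1 higher gene (1.50, adjusted p = 0.0405), with 3.95 to 6.50 on muscle arrays and 2.49 to 4.94 on clean arrays. These are low intensities, and Sst did not single out the 3 arrays. It stood at 5.97 on C57BL/6J 12.5 Gy replicate 1 and at 5.81 on C57L/J 15 Gy replicate 3. The mean of the 9 measured C cell genes was 7.13, 7.19 and 7.46 on the 3 arrays and at most 5.62 on clean arrays.

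Markers of lymph node and thymus were high on few muscle arrays and were also present on clean arrays. Glycam1, a mucin of the high endothelial venules of lymph nodes, stood at 10.52 on C57BL/6J 15 Gy replicate 2 and at 12.38 on C57L/J 15 Gy replicate 3, against 1.09 to 3.41 on the other 7 muscle arrays. On the clean array CBA/J 0 Gy replicate 3 it stood at 10.52, and the other clean arrays reached 6.40. Of 11 lymph node genes 3 exceeded all clean arrays on each of these 2 muscle arrays, beside 3 and 4 of 12 housekeeping genes. Cxcl13, a B cell chemokine, with 11.09 and 10.26 lay within the clean range, which reached 11.70. The difference between the classes did not pass the test for Glycam1 either (1.49 ± 1.65, adjusted p = 0.665). Rag1, the recombinase of immature lymphocytes, stood at 10.67 on C57L/J 15 Gy replicate 3 and at 8.20 on CBA/J 12.5 Gy replicate 3, and at 4.77 or less on the other 7. Among clean arrays it reached 7.48 on C57L/J 0 Gy replicate 3, and the difference between the classes did not pass the test (adjusted p = 0.35).

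Genes of thymic epithelium were highest on the same 2 arrays, and 8 and 4 of 9 exceeded all clean arrays there. The mean of the 9 genes was 9.43 and 7.81 on these arrays, and it also passed the highest clean mean of 7.28 on C57BL/6J 15 Gy replicate 2 with 7.73 and on C57BL/6J 12.5 Gy replicate 2 with 7.38. Prss16, the thymus-specific serine protease, stood at 10.47 and 8.43 on C57L/J 15 Gy replicate 3 and CBA/J 12.5 Gy replicate 3, against at most 7.11 on clean arrays. Ccl25, the chemokine that attracts thymocyte precursors, stood at 9.69 and 8.89 on the same arrays, and Pax1, a transcription factor of the pharyngeal pouches, at 9.04 and 7.42. On C57L/J 15 Gy replicate 3 the T cell surface genes Cd4 and Cd8b1 were at 7.99 and 9.23, and 16 of 25 genes on the T cell list and 13 of 18 on the thymocyte list exceeded all clean arrays. On CBA/J 12.5 Gy replicate 3 this held for 1 of 25 and 5 of 18. On each of these 2 arrays it also held for 4 of 12 housekeeping genes. On C57L/J 15 Gy replicate 3 it held for 17 of 19 interferon-stimulated genes as well.

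Brown and white fat was present on both kinds of array. Ucp1, the uncoupling protein of brown fat, stood at 12.75, 13.73 and 12.11 on the 3 arrays with thyroglobulin, at 9.97 on C57BL/6J 12.5 Gy replicate 2 and at 1.98 to 6.93 on the other 5. The clean array CBA/J 0 Gy replicate 3 had 13.45, and another clean array reached 12.56. Of 13 measured fat genes 0 passed the test (median difference 1.29), 10 were highest among clean arrays on CBA/J 0 Gy replicate 3, and 3 were called higher without that array. Its mean over 23 genes of mitochondrial respiration was also the highest of the clean arrays, 12.60 against at most 12.21 on the others. These 23 genes had a positive difference in 23 of 23 cases with a median of 0.46 and 0 called, and 21 were called higher without that array, where 1140 of all genes (6.27%) were. On C57L/J 15 Gy replicate 3 and CBA/J 12.5 Gy replicate 3 each of the 23 lay above all clean arrays. The part that muscle or fat had in this was not tested.

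Genes of further tissues stood above the clean range on 1 to 3 arrays. On C57BL/6J 15 Gy replicate 2, Alb, serum albumin of the liver, stood at 12.02 against 6.37 to 7.13 on the other 8 muscle arrays. Ttr, transthyretin, stood at 9.58, Apoa1, the apolipoprotein of HDL, at 8.84, and Serpina1c, an antitrypsin, at 9.73, and 8 of 9 liver genes exceeded all clean arrays there. Col2a1, the collagen of cartilage, was low on all arrays. It reached 6.95 on CBA/J 12.5 Gy replicate 3, against at most 5.63 on clean arrays. On C57L/J 15 Gy replicate 3 it stood at 4.12, within the clean range. On each of these 2 muscle arrays 10 of 20 cartilage genes exceeded all clean arrays, beside 4 of 12 housekeeping genes. Tnmd, tenomodulin of tendon, stood at 8.97, 9.60 and 10.34 on the 3 arrays with thyroglobulin against at most 6.48 on clean arrays. Dmbt1, a secreted mucosal glycoprotein, stood at 8.97, 11.54 and 13.74 there against at most 7.27.

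Connective tissue and gland genes were among the 10 higher genes on other lists. Lum, the proteoglycan lumican, was 1.90 ± 0.37 higher (adjusted p = 0.00948), Dcn, decorin, was 0.86 ± 0.21 higher (adjusted p = 0.0388), and 4 of 23 genes on the connective tissue list were called higher, beside 1.69% of all genes. Cilp, a protein of cartilage and tendon matrix, was 1.40 ± 0.24 higher (adjusted p = 0.00341), and Thbs4, a thrombospondin of tendon and muscle, was 2.66 ± 0.64 higher (adjusted p = 0.0335). Egf, on the salivary list, was 1.64 ± 0.34 higher (adjusted p = 0.0145), and Smr2 of the same list was 1.79 ± 0.41 higher (adjusted p = 0.025) but differed by -1.48 with its most variable probe set. Ly6d stands on the B cell list and Perp on that of p53 targets, and both are also known in squamous epithelium, where Ly6d marks keratinocytes and Perp is a desmosomal protein. Ly6d was 2.29 ± 0.41 higher (adjusted p = 0.00534) and Perp 1.23 ± 0.27 higher (adjusted p = 0.0223), each the sole higher gene of its list of 25 and 32. Without the 3 arrays with thyroglobulin 1 connective tissue gene was called, and Lum, Dcn, Thbs4, Egf, Smr2 and Perp no longer passed, as was the case for Gapdh. Gapdh, a glycolytic enzyme often used as a reference, was 0.66 ± 0.15 higher (adjusted p = 0.0237), with 12.89 to 14.44 on muscle arrays and 12.59 to 13.27 on clean arrays.

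Cardiac muscle genes, known from the pulmonary veins, were at high levels on both kinds of array. Myh6, the atrial heavy chain, stood at 12.76, 10.52, 12.53, 12.00, 13.50, 13.57, 13.30, 8.95 and 10.84, and between 9.92 and 13.21 on clean arrays. It differed by -0.71 ± 0.60 (adjusted p = 0.557), and 0 of 15 cardiac genes were called, with a median of -0.38 that turned to 0.069 without the 3 arrays with thyroglobulin. The 10 smooth muscle genes had a median of 0.25 and 0 called. Of the other lists, nerve and Schwann cells had a median of 0.13 over 13 genes and erythroid genes -0.40 over 6, both with 0 called. Cartilage had a median of 0.26 over 20 genes and tracheal gland 0.079 over 15, also with 0 called. The mean of the tracheal gland list still exceeded the highest clean mean of 10.86 on 4 muscle arrays. It was 11.04 on both C57BL/6J 12.5 Gy replicate 2 and C57BL/6J 15 Gy replicate 2. On C57L/J 15 Gy replicate 3 it was 11.32, and on CBA/J 12.5 Gy replicate 3 it was 11.91. In this order 7, 4, 6 and 9 of the 15 genes exceeded all clean arrays, beside 2, 3, 4 and 4 of 12 housekeeping genes.

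Genes of the lung itself were present at high levels on all 9 arrays, and most were slightly lower than on clean arrays. Sftpc, surfactant protein C of alveolar type 2 cells, ranged from 14.45 to 14.92 on muscle arrays and from 14.23 to 14.93 on clean arrays (0.070 ± 0.097, adjusted p = 0.739). Scgb1a1, the secretoglobin of club cells, ranged from 14.88 to 15.28 and from 14.62 to 15.23 (0.033 ± 0.093, adjusted p = 0.884). In bulk RNA fewer cells of a type and less RNA per cell cannot be told apart. All 15 genes of alveolar type 1 cells had a negative difference, with a median of -0.33 and 0 called, as did 26 of 27 genes of capillary endothelium (median -0.30, 0 called) and 14 of 15 of alveolar type 2 cells (median -0.31, 2 called lower). Among 19 fibroblast genes the median was -0.34 with 0 called, and among 14 club cell genes it was -0.068. The median of all genes was -0.033, and the median intensity over all probe sets was 128 to 167 on muscle arrays and 130 to 159 on clean arrays.

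The slight decrease depended on the arrays in the fit. Without the 3 arrays with thyroglobulin the medians were -0.034 for type 1 cells, 0.024 for endothelium, -0.036 for fibroblasts and -0.11 for type 2 cells. Without these 3 and the clean array CBA/J 0 Gy replicate 3, a choice made after seeing the data, they were -0.15, -0.13, -0.15 and -0.16. Without C57L/J 15 Gy replicate 3 alone they were -0.13, -0.12, -0.13 and -0.23. Without the clean array CBA/J 0 Gy replicate 3, in contrast, 8 of 15 type 1, 8 of 15 type 2, 10 of 27 endothelial and 8 of 19 fibroblast genes were called lower, where 708 of all 18194 genes (3.89%) were, against 48 with that array. Lpcat1, the acyltransferase of surfactant lipid, was among the 2 type 2 genes called and fell by 0.59 on the log2 scale (SE 0.13, adjusted p = 0.0238). Hc, complement component 5, was the other and fell by 0.53 (SE 0.11, adjusted p = 0.0174).

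**Figure D5:**
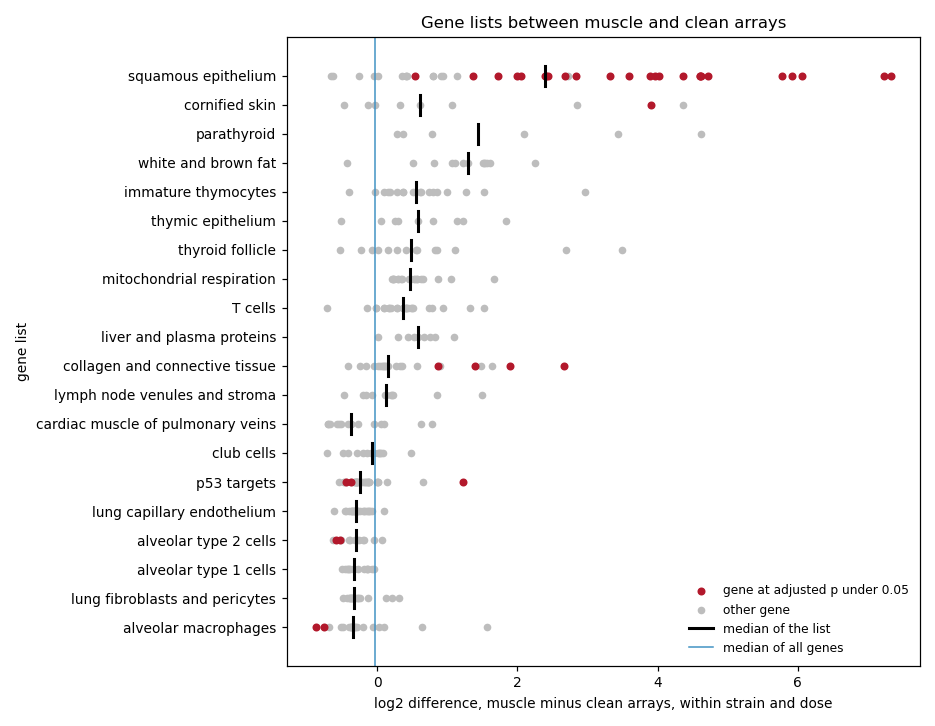
Log2 difference between muscle arrays and clean arrays, adjusted for strain and dose, of each gene of 20 lists. Points are genes, dark where the adjusted p was under 0.05, black bars are list medians and the vertical line is the median of all genes (-0.033). The squamous list has a median of 2.40 with 25 of 40 genes called, and the lists of alveolar, endothelial and fibroblast cells lie between -0.34 and -0.30.

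The genes with the largest falls were few and small in size. Chil3, a chitinase-like protein of alveolar macrophages, had 10.52 to 13.57 on muscle arrays and 12.00 to 14.35 on clean arrays and fell by 0.88 (SE 0.18, adjusted p = 0.0134), and Atp6v0d2, a proton pump subunit of macrophages, fell by 0.76 (SE 0.19, adjusted p = 0.0482), the 2 of 18 genes on the alveolar macrophage list that were called. Clec4d, a lectin receptor of myeloid cells, fell by 0.69 (adjusted p = 0.0489), and Cd300lf, an inhibitory receptor of myeloid cells, fell by 0.61 (adjusted p = 0.0229). Prmt8, an arginine methyltransferase, fell by 0.82 (adjusted p = 0.0202), Hoxb6, a homeobox gene, by 0.79 (adjusted p = 0.0375) and Adamts8, a secreted metalloprotease, by 0.67 (adjusted p = 0.0427). Fam221a fell by 0.63 (adjusted p = 0.0282), 4930562F07Rik by 0.62 (adjusted p = 0.023) and Lrmda by 0.63 (adjusted p = 0.0331), the last with a difference of 0.52 in the other direction when its most variable probe set stood for it. Of the p53 targets, Sesn2 fell by 0.45 (adjusted p = 0.0213) and Trp53inp1 by 0.38 (adjusted p = 0.023), and of 35 mitosis genes 0 were called. Without CBA/J 12.5 Gy replicate 1, a clean array, each of these falls, with those of Lpcat1 and Hc, no longer passed the test.

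Muscle arrays were uneven between doses in each strain. In C57BL/6J they made up 0 of 3 arrays at 0 Gy and 2 of 3 at 12.5 Gy, in CBA/J 2 of 3 at 0 Gy and 0 of 3 at 15 Gy, and in C57L/J 1 of 3 at 15 Gy alone. The comparisons in C57BL/6J and CBA/J were examined further. In the comparison of doses the squamous genes differed in opposite directions, with a median of 0.86 in C57BL/6J and of -0.91 in CBA/J. Krt13 differed by 6.32 ± 2.90 between 0 and 12.5 Gy in C57BL/6J (adjusted p = 0.375) and by -4.45 ± 2.90 between 0 and 15 Gy in CBA/J (adjusted p = 0.526). With the class of the array as a covariate the differences were 1.43 ± 1.73 and 0.44 ± 1.73. Krt4 in C57BL/6J went from 3.98 ± 2.60 (adjusted p = 0.596) to -0.84 ± 1.06. Of the 49 squamous and cornified genes 0 were called in either plain comparison, and 0 in C57BL/6J and 2 in CBA/J with the covariate.

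The number of genes called between doses changed with the handling of the muscle arrays. Between 0 and 12.5 Gy in C57BL/6J 348 genes were called (1.91%), and 281 with the class as covariate (1.54%), of which 230 were shared, 66.1% of the first and 81.9% of the second. Without any muscle array 126 were called, 79 of them among the 348. Between 0 and 15 Gy in CBA/J 537 genes were called (2.95%), 697 with the covariate (3.83%), of which 438 were shared, and 394 without muscle arrays. Leaving them out left 1 array at 12.5 Gy in C57BL/6J and 1 at 0 Gy in CBA/J, each assumed to vary like the other groups. The latter was CBA/J 0 Gy replicate 3, which carried transcripts of fat and lymph node. The CBA/J differences without the muscle arrays therefore rest on this array as the sham. Of 32 p53 targets 17 rose in C57BL/6J and 19 with the covariate, where 83 and 90 of all 18194 genes rose. In CBA/J 18 and 18 of the 32 rose, where 262 and 365 of all genes did. Without the muscle arrays the median difference of the 32 was 1.16 in C57BL/6J and 0.94 in CBA/J. In the plain comparison it was 1.11 and 1.25.

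Cdkn1a, the p53 target that encodes the cell cycle inhibitor p21, rose by 3.12 ± 0.21 in C57BL/6J (adjusted p = 2.71e-08) and by 3.21 with the class as covariate, and in CBA/J it rose by 3.35 (adjusted p = 7.29e-09) and by 3.26. Of 35 mitosis genes 17 fell in C57BL/6J and 12 with the covariate, where 265 and 191 of all 18194 genes fell. In CBA/J 15 and 11 of the 35 fell, where 275 and 332 of all genes did. Without the muscle arrays the median difference of the 35 was -0.85 in C57BL/6J and -1.08 in CBA/J. In the plain comparison it was -1.15 and -0.96. Mki67, the proliferation antigen Ki-67, fell by 4.27 in C57BL/6J (adjusted p = 0.00174), and by 4.12 with the covariate (adjusted p = 0.00679), and its difference of -2.60 without the muscle arrays missed the threshold (adjusted p = 0.0512). In CBA/J it fell by 2.69 (adjusted p = 0.0378), by 2.83 with the covariate (adjusted p = 0.0464) and by 3.01 without the muscle arrays (adjusted p = 0.0176). The muscle genes themselves had medians of 0.85 in C57BL/6J and -0.94 in CBA/J in the plain comparison of doses, and of -0.49 and 0.45 with the covariate.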

How the data were processed

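RNA of the right upper lobe of 27 mice (RNA integrity number above 9 in the labels) was hybridised to Affymetrix mouse genome arrays by the authors, in a single batch per their methods. What the authors deposited are intensities on a linear scale for 45101 probe sets. The submitters' processing notes name Affymetrix Expression Console 1.1, and how it summarised the probes was not stated in the material read. The trimmed mean, without the highest and lowest 2% of probe sets, was 500 on every array, and medians ran from 128 to 167. The brightest probe sets are outside this mean, so it does not fix the total intensity of an array. All columns belonged to a sample. The precision is limited by 3 arrays a group, each of 1 mouse.

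Here, intensities were floored at 1 and put on the log2 scale. Of the probe sets 34958 had 1 symbol, 932 several and 9211 none, and the last 2 kinds were left out. The brightest probe set on average stood for each of 18194 genes. limma 3.58.1 (R 4.3.3; lmFit and eBayes) was fitted to all 27 arrays with the group of strain and dose and the class of the array, and p-values were adjusted over all genes by Benjamini-Hochberg, with calls under 0.05. The dose comparisons used the same arrays without the class. The scripts were tested on simulated data. Skeletal muscle genes were in the fit and in its counts, but no p-value is printed for them, since the class was made from them. Genes named were the rule genes and markers, the 10 largest rises and 10 largest falls among called genes with a mean of at least 7 in the higher class, and up to 6 called genes per list with defining members; other genes named (late cornified envelope genes, Krt1, Krt10) were chosen after their values were seen. Members and lists were chosen with earlier results of these data known, and some list genes were not analysed here. The alternatives were another floor, normalization, low filter, variance model, array weights, probe set, threshold, replicate block, choice of arrays or class covariate, and each array left out. One alternative, leaving out the 3 arrays with Tg above 8 together with CBA/J 0 Gy replicate 3, was chosen after seeing the data. Figures used Python 3.11 and matplotlib 3.10.9.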

Additional observations from a re-analysis of the deposited data

Results flagged for a closer look

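Over the 9 muscle arrays 42 list means and 86 genes were examined for an array that stood apart from the other 8, by the gap to its nearest neighbour over the whole range. Of these 128 tests 17 (13.3%) stood out. A chance rate of about 1 in 20 cannot be set against this share, since many genes were chosen with their values known. The tests are also not independent, since lists and their genes share arrays. They fell on 3 arrays.

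On C57BL/6J 15 Gy replicate 2 the liver list had a mean of 9.22 (next highest array 6.13). Its genes Alb with 12.02 (7.13), Ttr with 9.58 (6.25), Apoa1 with 8.84 (5.72), Serpina1c with 9.73 (6.39) and Fgb with 7.24 (2.85) stood above the other 8 arrays.

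On C57L/J 15 Gy replicate 3 the list means of immature thymocytes, 8.59 (next 7.34), thymic epithelium, 9.43 (7.81), T cells, 8.82 (7.59), and interferon-stimulated genes, 10.44 (9.45), stood above the other arrays. So did Trp63 with 10.24 (8.76), while Adamts8 with 7.72 stood below (next lowest 8.60).

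On CBA/J 12.5 Gy replicate 3 the genes of cornifying epithelium stood below the other arrays, with Krt13 at 5.48 (next lowest 9.88), Lor at 6.19 (9.82), Lce1c at 0.00 (6.62) and Krtdap at 5.74 (9.78), as did the mean of the alveolar macrophage list, 9.19 (9.96).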

How the results depend on the processing

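The genes higher on muscle arrays numbered 307 and those lower 48, and both counts moved with the arrays in the fit. At an unadjusted p under 0.01 they were 789 and 489, within the 5 groups that hold both kinds of array 33 and 0, with the muscle score as a covariate 1381 and 1251, and without the 3 arrays with Tg 126 and 9. Without those and CBA/J 0 Gy replicate 3 (chosen after seeing the data) they were 133 and 11. The lower genes alone also moved by over 1.5 times with a floor of 32 (98), quantile normalization (91), median-centring (84), a filter on low values (91), an intensity trend with a robust prior (91), the most variable probe set (19) and more than 2-fold (0); in the last case the largest called fall was 1.84-fold. With each array left out the higher genes ranged from 76 (without C57L/J 15 Gy replicate 3) to 1140 (without CBA/J 0 Gy replicate 3), and were 132 without CBA/J 12.5 Gy replicate 1. The lower genes ranged from 2 to 708 without the same arrays, and were 3 without CBA/J 12.5 Gy replicate 1, 18 to 30 without C57L/J 12.5 Gy replicate 3, C57L/J 15 Gy replicate 1 or 2, C57BL/6J 12.5 Gy replicate 2 or C57BL/6J 15 Gy replicate 2, and 75 to 105 without CBA/J 0 Gy replicate 1 or C57BL/6J 15 Gy replicate 1 or 3. Genes called between doses in C57BL/6J and CBA/J numbered 348 and 537. They were 786 and 1459 with array weights, 169 and 268 with the most variable probe set, 191 and 258 at more than 2-fold, 934 and 1184 at an unadjusted p under 0.01, and 88 and 183 with the arrays of both groups alone. In CBA/J they were 323 with the mean of probe sets, and in C57BL/6J 126 without the muscle arrays. With each array left out they ranged from 150 (without C57BL/6J 0 Gy replicate 2) to 484, and from 298 (without CBA/J 0 Gy replicate 2) to 691. Leaving out an array of their own comparison gave 188 and 212 without C57BL/6J 12.5 Gy replicate 2 and 1, and 298 to 346 without any 1 of the 6 CBA/J arrays. The cause of these shifts was not tested.

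Mice of equal replicate number were not treated as pairs. The lowest correlation of same-numbered arrays was at most 0.084 in each pair of doses. Being a lowest value, it cannot exclude pairing. With the replicate number as a block the higher genes numbered 243 and the lower 22, and the dose comparisons called 348 and 521.

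Among named genes with a call, directions turned for Lrmda (0.52) and Smr2 (-1.48) with the most variable probe set. Directions also turned for genes without a call, among them Tg, Pth, Glycam1 and Rag1, whose differences were negative without the arrays with Tg. That of Glycam1 was also negative without C57L/J 15 Gy replicate 3. Medians turned for the cardiac list with array weights (0.20), without the arrays with Tg (0.0693) and without those and CBA/J 0 Gy replicate 3 (0.60), for the thyroid list without the arrays with Tg (-0.0404), and for the T cell list without C57L/J 15 Gy replicate 3 (-0.0473), without the arrays with Tg (-0.14) and without those and CBA/J 0 Gy replicate 3 (-0.0671). Of 36 named genes called outside the muscle lists, 29 lost the call within the 5 mixed groups, 22 without the arrays with Tg, 24 without C57L/J 15 Gy replicate 3, 22 without CBA/J 12.5 Gy replicate 1 and 10 with the block. Low intensities near the floor have no order between arrays.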
